A study of Zea mays with 56 samples.

Results

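Leaves of 4 maize plants with 1 B chromosome, the group 1B, were compared with leaves of 4 plants without any, the group Control. The members were taken from the labels: plants EB23, EB2, EB37 and EB40 for 1B and plants D1, D2, D3 and D4 for Control, which makes 16 of the 56 samples of the series and 8 of its 28 plants. Each plant gave an RNA-seq and a small RNA library. All plants were of the inbred line W22, 45 days old and grown in a greenhouse, and the number of B chromosomes had been counted in seedlings by fluorescence in situ hybridization, per the labels. The other 20 plants carried 2 to 7 B chromosomes and are used here only to ask how the 1B plants stood among the carriers. Plants of a group are biological replicates, per the labels. All Control plants have codes with D and all carriers codes with EB, so the presence of a B chromosome and the origin of the plants cannot be told apart.

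Some maize plants carry B chromosomes, dispensable extras beside the regular set, which is called the A chromosomes. They do not pair with A chromosomes, they carry repeats and transposable elements (TEs) along with copies of A-chromosome genes, and they persist because they are passed on at more than the usual rate through nondisjunction in the pollen and preferential fertilization. Plants with few copies look much like plants without any. The comparison of 1 copy with none addresses what the first copy goes along with in the leaf.

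Genes were measured in FPKM, a read density scaled for transcript length and library depth, TEs and miRNA loci in read counts, shown as depth-scaled counts (CPM) after scaling between libraries. The 1B libraries held 908035 to 1623250 TE counts and 64362 to 120136 miRNA counts, against 1206590 to 1492260 and 55575 to 111964 in Control. The depth of the gene libraries is known only relative to each other and spanned 0.655 to 0.959 of plant D3 in 1B and 0.595 to 1.06 in Control. Among the 1B plants, EB23 stood apart in its genes and TEs: 969 of 19075 genes and 968 of 5359 TEs lay over 2-fold from the mean of its 3 mates, the highest counts among the 20 plants of the groups with 4 plants, where the lowest were 357 and 315. Plant EB2 had 752 such genes, EB37 459 and EB40 373. Plant EB37 stood apart in its TE composition and had the smallest spike-in total of all libraries, 427551 counts.

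A-chromosome genes differed widely between leaves with 1 B chromosome and leaves without one. Of 24159 such genes tested with limma, 4274 were higher and 4240 lower in 1B at a Benjamini-Hochberg adjusted p of 0.05, 35.2% in all, and higher and lower genes were almost equal in number. The median size of the change among the called genes was 0.74 on the log2(FPKM + 0.5) scale, and 2694 of them changed by more than 1. In bulk leaf RNA, fewer cells of a type and less RNA per cell cannot be told apart. Scaling the same values by the spike-in totals shifted the median of all genes by 0.40 (log2) and turned the split into 4751 higher and 682 lower A-chromosome genes, 87.4% higher in place of 50.2%. Called genes lay on every A chromosome, from 32.3% of those tested on chromosome 10 to 37.4% on chromosome 4. In the authors' deposited table of the same comparison 6312 genes are called, of which 5924 were also called here and in the same direction; these are 93.9% of the deposited calls and 68.5% of the 8653 calls over all genes made here.

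Every 1B plant lay farther from the Control plants than the Control plants lay from each other. Of the A-chromosome genes tested, 3800 in plant EB23, 4001 in EB2, 3742 in EB37 and 3565 in EB40 were over 2-fold from the Control mean. A Control plant set against the mean of its 3 mates had 789 such genes in D1, 1377 in D2, 866 in D3 and 1187 in D4. The 20 plants with more copies had between 3307 and 4464, with a median of 3808, so the 4 plants with 1 copy lay within the range of the plants with 2 to 7. Plant EB23, which was the least like its mates, was not the farthest from Control. Without EB23 the fit over all genes called 8918 genes, and without EB23 and EB37 together it called 7842, against 8653 with all plants.

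**Figure D1:**
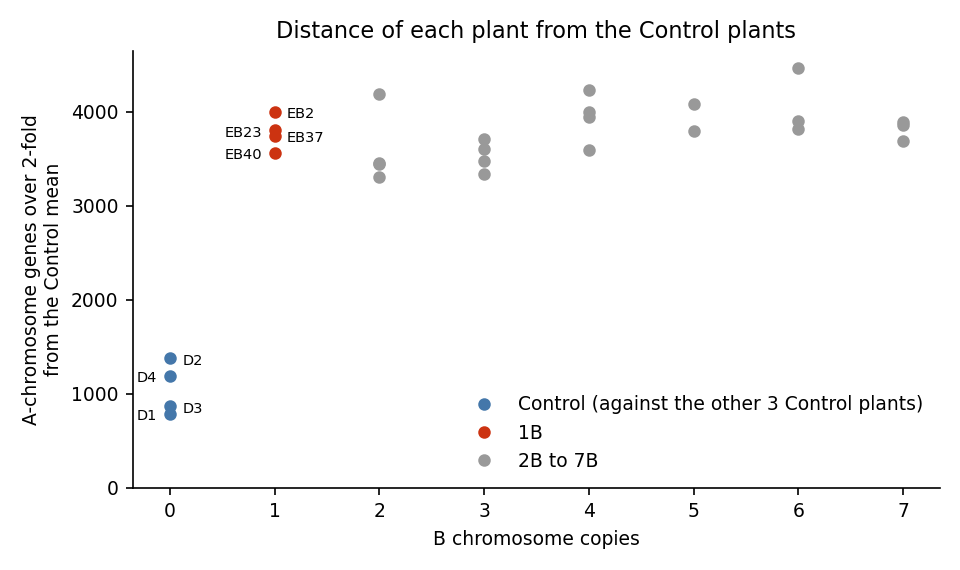
Number of A-chromosome genes over 2-fold from the Control mean (vertical axis) in each of the 28 plants by B chromosome copies (horizontal axis), with 1 point per plant; Control plants are set against the other 3 Control plants. The 1B plants lie at 3565 to 4001 genes, within the range of the plants with more copies, and the Control plants at 789 to 1377.

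The A-chromosome genes that rose most were off or nearly off without a B chromosome. Zm00004b020638 (chromosome 4, 23526708 to 23527696) was listed at 0 FPKM in all 4 Control plants and at 59.2 in EB23, 34.9 in EB2, 45.8 in EB37 and 40.9 in EB40. Also on chromosome 4, Zm00004b020529 (17410129 to 17410907) was at 2.13, 3.05, 3.84 and 3.42 FPKM in Control plants D1 to D4 and at 255, 169, 141 and 131 in EB23, EB2, EB37 and EB40. The groups did not overlap for either gene, which was required of the genes named here. Over all 24515 genes tested, 15.4% had all 1B plants above all Control plants and 14.3% below. The fitted log2 change of Zm00004b020529 was 5.57 ± 0.24 (SE, n = 4 per group, limma adjusted p = 3.05e-15), a 56.0-fold difference of the means, 3.11 ± 0.730 (SD) and 174 ± 56.5. No name or role is given for these genes, since the tables used here hold identifiers alone.

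The 2 A-chromosome genes that fell most were expressed in every Control plant. Zm00004b018029 (chromosome 3, 165863150 to 165863768) was at 45.6, 72.9, 43.7 and 78.8 FPKM in D1 to D4 and at 2.40, 1.37, 1.56 and 0.820 in EB23, EB2, EB37 and EB40, which corresponds to -4.91 ± 0.34 (SE) on the log2 scale (limma adjusted p = 2.82e-11). Zm00004b003081 (chromosome 1, 188831663 to 188831888) was at 23.0, 25.6, 9.76 and 12.3 FPKM in Control and listed at 0 in all 4 plants of 1B. Neither gene had a 1B plant within the Control range, again as the choice required. In the groups with more copies the mean of Zm00004b018029 lay between 1.86 and 3.34 FPKM, and Zm00004b003081 was read in some plants at low levels, with group means of 0 to 2.54. Once relative depth is allowed for, the values of Zm00004b003081 lie near whole multiples of a common step. Few reads may thus stand behind its level in Control, and very few behind that in the carriers.

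**Figure D2:**
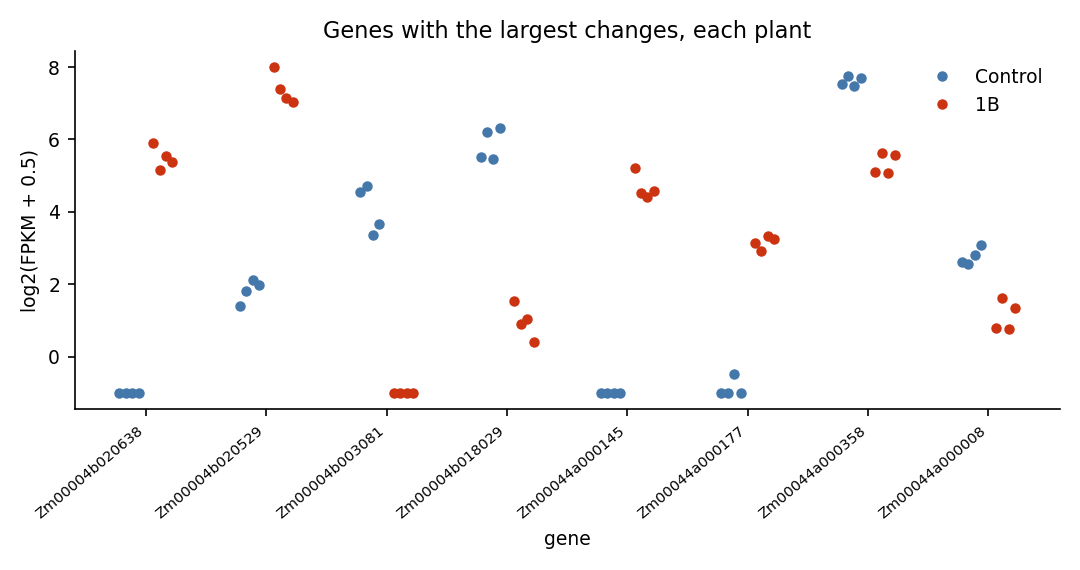
Level of 8 genes as log2(FPKM + 0.5) (vertical axis) in each Control plant (blue) and each 1B plant (red), 1 point per plant; the first 4 are A-chromosome genes and the last 4 B-annotated genes. The 8 genes were chosen so that the points of the groups do not overlap, and a value of -1 stands for a gene listed at 0 FPKM.

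A small set of A-chromosome genes was listed at 0 in all plants of one group and read in all plants of the other. Of 40306 A-chromosome genes in the table, 19 were at 0 FPKM in the 4 Control plants and at 1 FPKM or more in the 4 plants of 1B, which is 0.0471%, and 10 showed the reverse, 0.0248%. Chromosome 4 held 6 of the 19, and 2543 of the 24159 A-chromosome genes tested with limma. Whether the 19 gather on this chromosome was not tested. The expressed level was low in most: the median over the genes of the group mean was 3.68 FPKM for the 19 and 3.66 for the 10. For some of these genes, such as Zm00004b034367 and Zm00004b028653, very few reads per plant may stand behind the values. A listing at 0 in the other group then does not show that the gene is off. Among the 20 plants with more copies, 11 of the 19 genes were at 1 FPKM or more in every plant, and 4 of the 10 were at 0 in every plant. With more copies most of the 19 kept the level they had with 1: the ratio of the 7B mean to the 1B mean had a median of 0.978 and lay within 1.5-fold for 15 genes. The other 4 are named here after their values were seen. The ratio was 0.482 for Zm00004b007484, 0.537 for Zm00004b015616 and 0.219 for Zm00004b028653, whose 2B mean was 0. It was above 1.5 for Zm00004b040044 (chromosome 10, 135432835 to 135435546). This gene was at 6.18, 5.06, 6.01 and 5.91 FPKM in EB23, EB2, EB37 and EB40, and its mean was 8.26 times as high in 7B as in 1B.

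A part of the genes annotated to the B chromosome was higher with the first copy. The annotation holds 758 such genes, 686 on the B chromosome and 72 on scaffolds, and 356 had enough reads to be tested. Of these, 120 were higher in 1B than in Control and 19 lower by limma, 33.7% and 5.34% (39% in all), against 17.9% and 17.4% (35.3% in all) of all 24515 genes. Zm00044a000145 (B chromosome, 21804671 to 21806536) was listed at 0 FPKM in all 4 Control plants and was at 36.5 in EB23, 22.4 in EB2, 21.0 in EB37 and 23.5 in EB40. Zm00044a000177 (23551736 to 23554517) was at 0.224 in D3 and at 0 in the other Control plants, and at 8.42, 7.15, 9.68 and 9.04 in EB23, EB2, EB37 and EB40. All 4 plants of 1B were above all Control plants for both genes, as the choice of named genes required.

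A B annotation does not make a gene silent without the B chromosome. Of the B-annotated genes, 92 reached a Control mean of at least 1 FPKM, and of these 15 were higher and 15 lower in 1B, near the shares over all genes (17.9% and 17.4%). Reads of near-identical A-chromosome copies may be counted at such genes, and how the authors placed reads that map to several positions is not given in the sources used here. Zm00044a000358 (52423953 to 52427029) was at 185, 216, 178 and 206 FPKM in D1 to D4 and at 34.1, 49.1, 33.4 and 47.4 in EB23, EB2, EB37 and EB40, which is -2.26 ± 0.22 (SE) on the log2 scale (limma adjusted p = 8.68e-09). Its mean rose again from 41.0 FPKM in 1B to 102 in 7B. Zm00044a000008 (3180951 to 3188806) fell from 6.39 ± 1.15 (SD, n = 4) to 1.76 ± 0.677 and stayed between 1.51 and 2.38 in the means of the other carrier groups. For both genes the highest 1B plant lay under the lowest Control plant, as the choice required.

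To follow the dose of the B chromosome itself, 105 B-only genes were taken: those B-annotated genes whose Control mean was below 0.1 FPKM and whose mean over the plants with 3 to 7 copies was at least 1 FPKM. This choice used Control and the 3B to 7B plants and neither 1B nor 2B. The summed level of the 105 genes was 223 FPKM in EB23, 251 in EB2, 199.8 in EB37 and 215 in EB40, and 0.899 to 1.77 in the Control plants. Among the 105, 76 were called higher in 1B than in Control by limma; Control values were part of the choice, so this count is a description. In the single plants 90 of the 105 genes were read in EB23, 98 in EB2, 90 in EB37 and 96 in EB40.

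The summed level of the B-only genes was 222 ± 21.6 FPKM (SD, n = 4) in 1B and 418 ± 54.5 in 2B. The second copy thus went with a 1.88-fold level, and with a 1.55-fold level when scaled by the spike-in totals. All 4 plants of 1B, EB23 and EB37 included, lay under all 4 of 2B, which ranged from 378 to 494; the 2-sided exact permutation p was 0.0286, the smallest that 4 against 4 plants can give. Per copy, the summed level was 222 FPKM in 1B, 209 in 2B and 187 in 7B. Gene by gene, the ratio of 2B to 1B had a median of 2.02 and quartiles of 1.63 and 2.42, and it was above 1 for 98 of the 104 genes with a value. By position on the B chromosome, the ratio of the summed levels was 1.99 for the genes at 0 to 25 Mb, 1.89 at 25 to 50 Mb, 2.43 at 50 to 80 Mb and 1.77 beyond 80 Mb.

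**Figure D3:**
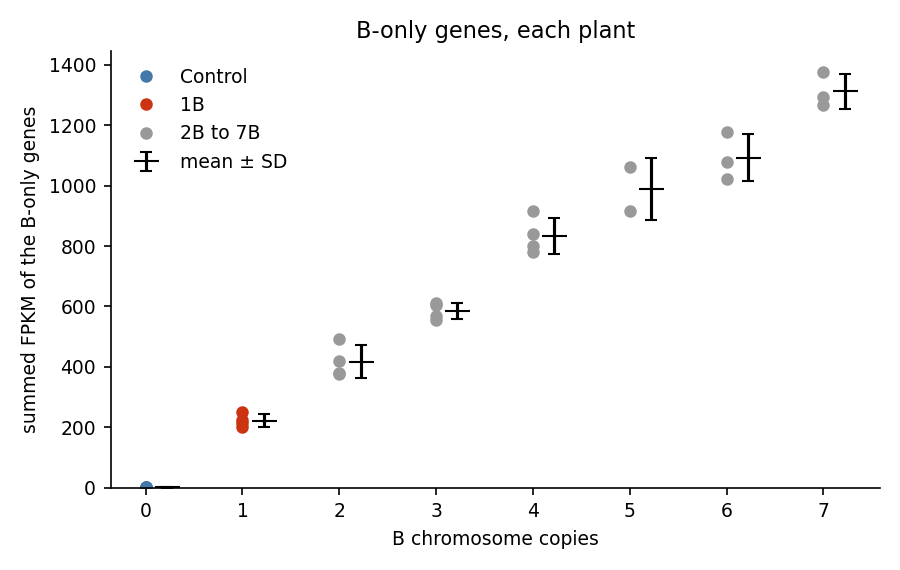
Summed level of the 105 B-only genes in FPKM (vertical axis) in each plant by B chromosome copies (horizontal axis), with 1 point per plant and the group mean ± SD beside it. The 4 plants of 1B lie between 199.8 and 251 FPKM, above all Control plants and under all plants with 2 copies.

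The B-only genes on scaffolds had a ratio of 1.08, and 1 of them was read in some plants of 1B and in no plant of 2B. Zm00044a000744 (scaffold37623, 112561 to 115575), singled out after its values were seen, was at 26.6 FPKM in EB23 and 18.2 in EB2 but was listed at 0 in EB37 and EB40, in all Control plants and in all 2B plants. Among the plants with 3 or more copies it was listed at 0 in some plants and at 8.47 to 70.8 FPKM in others. Once relative depth is allowed for, its values lie near small whole multiples of a common step, so very few reads may stand behind them. Whether plants of the same copy number differ in this gene was not tested. Without it, an alternative chosen after seeing the data, the ratio for the scaffolds was 1.88, within the range of the other positions.

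Set against the plants with more copies, the 1B leaves differed in few genes, and nearly all of these were lower in 1B. With no Control plant in the comparison, 245 genes were called between 1B and the mean of the 2B to 7B groups, 0.999% of the 24515 tested; 10 were higher in 1B (0.0408%) and 235 lower (0.959%). B-annotated genes made up 140 of them, all lower in 1B, which is 39.3% of the 356 tested, while 0 were higher. On the A chromosomes 10 genes were higher (0.0414%) and 95 lower (0.393%) of 24159, 0.435% in all, although this contrast had a smaller median SE (0.147, over A-chromosome genes) than that against Control (0.189). Without EB23 and EB37, 161 genes were called. Without EB2, 36 genes were higher in 1B in place of 10, and 241 lower. A difference between the 2 contrasts in the number of called genes was not tested, since both use the 1B plants.

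The 2 A-chromosome genes lowest in 1B relative to the other carriers followed the copy number. Zm00004b023323 (chromosome 4, 199588521 to 199589106) was listed at 0 in all Control plants, at 1.30, 1.48, 0.845 and 0 FPKM in EB23, EB2, EB37 and EB40, and its group mean rose from 2.70 in 2B to 18.0 in 7B. Zm00004b033487 (chromosome 9, 127743494 to 127746688) was also listed at 0 in Control, was at 0.344, 1.41, 1.34 and 2.11 FPKM in the 1B plants, and reached 11.4 in 7B. Both are annotated to A chromosomes and showed the pattern of the B-only genes. Their log2 differences from the other carriers were -2.63 ± 0.26 and -2.03 ± 0.21 (SE, limma adjusted p = 1.50e-07 and 2.81e-07). The 2 B-annotated genes lowest in 1B by the same rule were Zm00044a000437, with -2.97 ± 0.39 (limma adjusted p = 1.61e-05), and Zm00044a000109, with -2.72 ± 0.65 (limma adjusted p = 0.0349). Zm00044a000437 was at 0, 2.86, 2.03 and 5.72 FPKM in EB23, EB2, EB37 and EB40, and Zm00044a000109 was listed at 0 in all 8 plants of 1B and Control. In 2B, Zm00044a000109 was at 5.90 FPKM in EB17 and at 0 in EB1, EB4 and EB8. It was also at 0 in EB18 of 3B and EB3 of 6B, so its absence was not particular to 1B.

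The 2 A-chromosome genes highest in 1B relative to the other carriers were read in all 4 plants of 1B, but their calls were close to the threshold. Once relative depth is allowed for, the values of each gene lie near small whole multiples of a common step. Very few reads may thus stand behind these values, and the levels are near the floor. Zm00004b018457 (chromosome 3, 183866205 to 183868458) was at 9.75, 3.33, 4.73 and 3.33 FPKM in EB23, EB2, EB37 and EB40, at 5.35 in D4 and at 0 in the other Control plants. Its log2 difference of 2.94 was 2.62 without EB23 and 2.94 without EB37, with limma adjusted p of 0.0123, 0.121 and 0.0586. Zm00004b028653 (chromosome 6, 27095517 to 27095888) was at 1.86, 1.27, 3.61 and 2.54 FPKM in the 1B plants and at 0 in Control, and its log2 difference of 1.64 was 1.70 without EB23, 1.43 without EB37 and 1.58 without EB40, with limma adjusted p of 0.0168, 0.0560, 0.173 and 0.0900. The log2 difference of Zm00044a000109, above, stayed at -2.72 without any one of the 4 plants of 1B, all at 0, while the call was lost, with limma adjusted p of 0.135 without EB23, 0.0923 without EB2, 0.140 without EB37 and 0.111 without EB40.

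TEs differed between 1B and Control about as widely as genes. Of 5359 elements tested with edgeR, 1035 were higher and 817 lower in 1B, 19.3% and 15.2%, or 34.6% in all. Among the 241 B-tagged elements, those whose identifier marks them as B-chromosome copies, 92 were higher and 35 lower, 38.2% and 14.5% (52.7% in all); among the 5118 others 943 were higher and 782 lower, 18.4% and 15.3% (33.7% in all). Scaled by the spike-in totals, 1208 TEs were higher and 358 lower, 77.1% higher in place of 55.9%. These counts depended on the libraries that enter the fit. With only Control and 1B in the fit, 1193 TEs were called, 555 higher and 638 lower, and 33 B-tagged elements were higher. The filter on low counts, the scaling between libraries and the spread all changed with it, and their parts were not tested. In the authors' deposited table of the comparison 683 TEs are called, of which 549 (80.4%) were called here in the same direction, 29.6% of the calls made here.

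B-tagged elements that gave no reads without the B chromosome came on with 1 copy. DHH00002zmB00367, a Helitron, a DNA transposon that moves by rolling-circle replication, had no read in Control and was at 39.99 CPM in EB23, 39.2 in EB2, 42.6 in EB37 and 40.5 in EB40. The 4 plants differed little, and against a floor of 3 counts over the Control group the element was at least 60.6-fold higher. RLG00487zmB00001, of the Gypsy superfamily of LTR retrotransposons, was at 64.5, 28.2, 34.5 and 34.98 CPM in EB23, EB2, EB37 and EB40, at least 56.8-fold higher, and RLC01289zmB00001, of the Copia superfamily, was at 10.3, 32.3, 27.6 and 24.6 CPM, at least 37.9-fold higher. Plant EB23 was the highest of the 4 for the first of these retrotransposons and the lowest for the second. Such bounds cover counting error only.

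Elements absent from Control were more abundant with 2 copies than with 1. Over the 29 B-tagged elements with no read in Control and at 5 CPM or more over the 3B to 7B plants, the summed level was 245 ± 11.98 CPM (SD, n = 4) in 1B and 455 ± 27.8 in 2B. Its mean reached 1448 CPM in 7B.

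B-tagged elements that fell were read in Control. RLG16900zmB00001 was at 58.5, 106, 42.7 and 62.8 CPM in D1 to D4 and at 2.58, 2.75, 8.05 and 3.18 in EB23, EB2, EB37 and EB40, a log2 change of -4.04 ± 0.40 (SE, edgeR adjusted p = 2.30e-09). RLG00020zmB00059 fell from 21.9 ± 5.81 CPM (SD, n = 4) to 0.741 ± 0.860, and RLG00020zmB00017 from 7.35 ± 3.33 to 0.863 ± 1.73. All 3 are Gypsy-type elements. No 1B plant reached the Control range, which was required of the elements named here. Over all 5359 TEs tested, 15.7% had all 1B plants above all Control plants and 13.6% below. The reads of near-identical copies may be shared between B-tagged and A-chromosome elements, which the files do not resolve.

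Among elements without a B tag the largest falls were of Helitrons of the family DHH00002. DHH00002Zm00004b08114 was at 3183, 7475, 2578 and 5980 CPM in D1 to D4, the counts of a highly expressed element, and at 36.1, 17.9, 23.0 and 25.4 in EB23, EB2, EB37 and EB40, a log2 change of -7.58 ± 0.34 (SE, edgeR adjusted p = 1.71e-16). In the groups with more copies its mean stayed between 17.9 and 26.1 CPM. DHH00002Zm00004b01751 was at 79.4 to 104 CPM in Control and had no read in any 1B plant, at least 125-fold lower, and DHH00002Zm00004b03266 was at 25.5 to 41.0 CPM in Control and had no read in 1B, at least 46.8-fold lower; DESeq2 gave the latter an adjusted p of 0.309. The largest rises were of 2 Copia-type elements and a Gypsy-type element. RLC03512Zm00004b00002 went from no read to 11.6, 19.2, 36.8 and 26.2 CPM in EB23, EB2, EB37 and EB40, RLG09750Zm00004b00001 from no read to 10.3, 28.9, 13.8 and 15.1, and RLC04710Zm00004b00001 from 0.187 ± 0.375 CPM (SD, n = 4) to 47.5 ± 10.4. No 1B plant overlapped with Control for any of them, as the choice required.

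Elements read in every plant of one group and in none of the other were rare. Of 60247 elements in the table, 13 had no count in Control and at least 5 in each 1B plant, 0.0216%, and 4 showed the reverse, 0.00664%. Of the 13, 9 were B-tagged, and all 13 were read in each of the 20 plants with more copies. Of the 4, 2 belonged to DHH00002 and 2 were Gypsy-type elements, and 1 of the 4 had no read in any of the 20 other carriers.

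By superfamily, B-tagged Helitrons were higher in 1B in 45 of 98 tested cases and lower in 4, and B-tagged Copia elements higher in 8 of 14 and lower in 2, against 38.2% and 14.5% of all B-tagged elements. B-tagged Gypsy elements had 21 higher and 13 lower of 60, and B-tagged LTR elements of no assigned superfamily (RLX) 15 higher and 16 lower of 59. Among elements without a B tag, of which 18.4% were higher and 15.3% lower, the Helitrons had 522 higher and 270 lower of 2575 (20.3% and 10.5%). RLX elements went the other way in number, with 110 higher and 234 lower of 811 (13.6% and 28.9%). Gypsy elements had 171 higher and 161 lower of 828, and Copia elements 87 and 96 of 532. Of the smaller classes, hAT transposons had 20 higher and 6 lower of 186, Mutator transposons 9 and 7 of 48, Harbinger transposons 6 and 3 of 59, CACTA transposons 6 and 1 of 14, Mariner transposons 2 and 1 of 14, SINEs 3 and 3 of 29, L1 LINEs 5 and 0 of 12 and RTE LINEs 2 and 0 of 10. Over all other elements tested, the median log2 change was 0.11, and it was 0.11 for Helitrons and -0.10 for RLX elements. Differences between superfamilies were not tested.

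A few elements took a large part of the TE reads in plant EB37 and in Control plants D2 and D4. The most abundant TE, the Gypsy-type element RLG00021Zm00004b00084, held 31.4% of the TE counts in EB37, against 8.91% in EB23, 5.81% in EB2 and 9.30% in EB40. In Control it held 17.7% in D2 and 25.1% in D4, against 3.57% in D1 and 3.87% in D3. The Helitron DHH00005Zm00004b03157 was at 129814 CPM in EB37, 103332 in D2 and 106574 in D4, and at 438 to 11817 in the other 5 plants. RLG01144Zm00004b00002 was at 96737 CPM in EB37, 72603 in D4 and 17540 in D2, and at 448 to 8703 in the others. High plants thus occurred in both groups, and neither element was called between 1B and Control (edgeR adjusted p = 0.796 and 0.911). Without these 3 libraries 1237 TEs were called in place of 1852, 607 higher and 630 lower, and 68 B-tagged elements were higher.

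**Figure D4:**
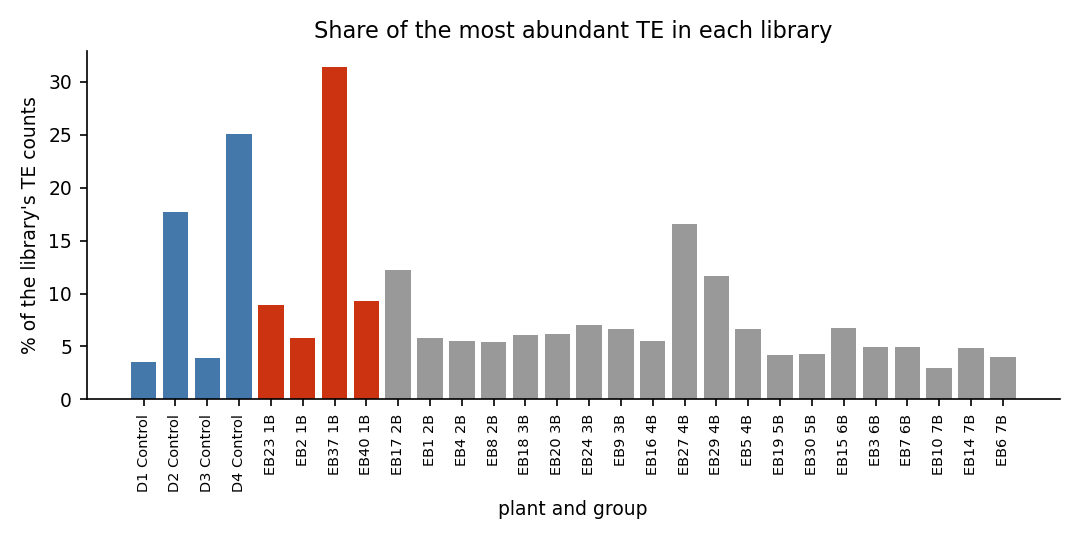
Share of each library's TE counts, in percent (vertical axis), taken by the most abundant TE in each of the 28 plants, with 1 bar per plant and Control in blue, 1B in red and the other carriers in grey. Plant EB37 has the highest bar, 31.4%, followed by the Control plants D4 and D2.

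Against the other carriers, 64 TEs were higher (1.19%) and 278 lower (5.19%) in 1B, 6.38% of those tested. Of the 241 B-tagged elements 99 were lower (41.1%) and 3 higher (1.24%), 42.3% in all. Of the 5118 others 179 were lower (3.5%) and 61 higher (1.19%), 4.69% in all. Without EB37 alone the higher count fell to 18 and the lower to 218, and without EB37, D2 and D4 to 11 and 229. Without EB23 and EB37, 213 TEs were called. The largest falls among B-tagged elements were at low levels: RLX00241zmB00001 was at 0.658 ± 0.481 CPM (SD, n = 4) in 1B and at 14.5 in the 7B mean, RLG00006zmB00412 at 1.73 ± 1.18 and 20.4, and RLG_gofizmB00001 at 0.371 ± 0.430 and 7.79. Among the others, RLG00001Zm00004b06884 had no read in 1B and a mean of 8.26 CPM in 7B, RLG00020Zm00004b00197 was at 0.172 and 8.24 CPM, and RLG00020Zm00004b00049 at 0.199 and 6.96. The edgeR call of RLG00020Zm00004b00049 was lost without EB23 (adjusted p = 0.0758), without EB2 (0.122) or without EB37 (0.0907), and that of RLG00020Zm00004b00197 without EB40 (0.0644).

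The elements that stood highest in 1B over the other carriers were of different kinds, and 3 of the 6 named rested on plant EB37. DHH00005Zm00004b03157 and RLG01144Zm00004b00002, described above, were called higher in 1B by log2 differences of 4.41 and 4.12 (edgeR adjusted p = 0.00124 and 0.000800), and without EB37 these became 1.41 and 1.18 (0.575 and 0.609). The B-tagged RLX16462zmB00001 was at 365 CPM in EB37 and at 42.6 to 85.1 in the other plants of 1B, and its log2 difference went from 1.40 to 0.27 without EB37 (edgeR adjusted p from 0.0269 to 0.858). RLG09111Zm00004b00001 was at 14.96 CPM in EB37, 22.3 in EB40, 1.29 in EB23 and 0 in EB2, and its log2 difference of 4.27 was 4.00 without EB37 and 3.28 without EB40 (edgeR adjusted p = 0.0178, 0.0711 and 0.234). DHH00002zmB00143 was at 23.2, 37.1, 32.2 and 20.7 CPM in EB23, EB2, EB37 and EB40, and its log2 difference of 0.69 was 0.49 without EB2 and 0.60 without EB37 (edgeR adjusted p = 0.00852, 0.168 and 0.0734). DHH00351zmB00001 was at 13.7 to 19.6 CPM in the 4 plants of 1B and at 1.09 to 6.41 in Control, and its log2 difference of 0.93 from the other carriers stayed between 0.82 and 1.01 without any one of these plants of 1B. Its edgeR adjusted p of 0.0492 passed 0.05 without EB23 (0.0856), EB2 (0.0779), EB37 (0.208), EB40 (0.147), D1 (0.0632) or D3 (0.0637).

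MicroRNAs guide the cutting or silencing of messenger RNAs that match them, and plant families have few and specific targets. The deposited table holds 98 miRNA loci. Of these, 71 had enough reads to be tested, and edgeR called 12 between 1B and Control, 16.9%: 4 higher (5.63%) and 8 lower (11.3%). Without regard to calls, all 1B plants lay above all Control plants at 8 loci (11.3%) and below them at 7 (9.86%). The split of the calls into higher and lower depended on the scaling between libraries and on single plants. With the RLE factors 8 of 12 called loci were higher, with the total of each small RNA library 16 of 18, and with DESeq2 8 of 14; the median log2 change of all loci was -0.12 as reported and 0.22 with the library total, a shift of 0.34. Higher loci outnumbered lower ones 12 to 4 without EB23, 12 to 1 without EB37, 9 to 2 without D1, 10 to 2 without D2 and 11 to 3 without D4. Lower loci outnumbered higher ones 10 to 6 without EB2, 5 to 3 without EB40 and 7 to 5 without D3. Without EB23 and EB37 together 10 loci were called, 9 higher and 1 lower. The authors' deposited table calls 11 loci, all higher in 1B, and 4 of them were called here, in the same direction. Only 6 loci were called in the same direction with TMM, RLE and library-total scaling. Their most abundant RNAs, as the deposited table gives them, follow 5′ to 3′ with the seed, bases 2 to 8, in capitals, together with a second miR167-3p locus that went the other way. Neither the files nor the reference used here name families; the names were given after the files were seen, from the conserved mature sequences.
miR528-3p, Cluster_66098: cCUGUGCCugccuccuccauu
miR171, Cluster_63212: uUGAGCCGcgccaauaucucu
miR167-3p, Cluster_35421: aUCAUGCUguggcagccucacu
miR398, Cluster_49465: uGUGUUCUcaggucgcccccg
miR395, Cluster_11748: uGAAGUGUuugggggaacuc
miR1432, Cluster_53031: uCAGGAGAgaugacaccgacg
miR167-3p, second locus, Cluster_63677: aGAUCAUGuugcagcuucacu

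The miR528-3p locus (chromosome 9, 159738713 to 159738849, minus strand) rose most. It was at 132, 93.5, 177 and 187 CPM in D1 to D4 and at 1999, 1355, 789 and 794 in EB23, EB2, EB37 and EB40, from 48 and 466 reads in all. All 1B plants were above all Control plants, with a log2 change of 3.05 ± 0.54 (SE, edgeR adjusted p = 0.000185). The sequence is that of the 3′ arm, and no miR528 locus giving the RNA of the other arm was tested. The family miR528 is one of grasses and other monocots that targets copper enzymes. The miR398 locus (chromosome 7, 39565488 to 39565658, plus strand) belongs to a family that targets copper/zinc superoxide dismutase. It was at 3699, 7214, 7058 and 4141 CPM in Control and at 13961, 11363, 8458 and 11102 in EB23, EB2, EB37 and EB40, again without overlap, with a log2 change of 1.03 ± 0.31 (edgeR adjusted p = 0.0242).

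Of the 4 tested loci of the copper list (miR397, miR398, miR408 and miR528) 2 were called higher and 0 lower, with a median log2 change of 1.10, against 5.63% higher, 11.3% lower and a median of -0.12 over all loci. The second miR398 locus, Cluster_16192 (chromosome 2, 174592244 to 174592383), gives the same RNA as the first, so the 2 may share reads. It was at 325 to 849 CPM in Control and 885 to 1585 in 1B, without overlap, with a log2 change of 1.17 ± 0.44 and an edgeR adjusted p of 0.0563, which was 0.0387 with RLE factors and 0.00607 with the library total. The miR408 locus, Cluster_55557, of a family that targets blue copper proteins, was at 366, 966, 1557 and 659 CPM in Control and at 1284, 2280, 751 and 1278 in EB23, EB2, EB37 and EB40. These overlapped, with a log2 change of 0.70 ± 0.53 (edgeR adjusted p = 0.324). These lists were drawn up with earlier results of the same data known.

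The miR171 locus (chromosome 9, 101060209 to 101060336, minus strand) belongs to a family that targets GRAS transcription factors, which act in meristems. It was at 335, 234, 248 and 148 CPM in Control and at 829, 607, 991 and 967 in EB23, EB2, EB37 and EB40, a log2 change of 1.81 ± 0.28 (edgeR adjusted p = 4.69e-05) without overlap. It was the only one of the 5 tested miR171 loci that was called. The calls of miR171, miR528-3p and this miR398 locus held without any one of the 8 plants and without EB23 and EB37 together.

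Of the 10 tested loci of the auxin list 1 was called higher and 2 lower, near the shares over all loci (5.63% and 11.3%). The miR167-3p locus on chromosome 5 (4442863 to 4442963) was at 335, 436, 460 and 256 CPM in Control and at 476, 832, 770 and 1174 in EB23, EB2, EB37 and EB40, a log2 change of 1.14 ± 0.33 (edgeR adjusted p = 0.0216). Plant EB23 was just above the highest Control plant, and without EB40 the log2 change was 0.93 (edgeR adjusted p = 0.0766). The second miR167-3p locus, on chromosome 9 (115048666 to 115048813), was at 14593, 12746, 11834 and 17657 CPM in Control and at 8586, 9578, 9709 and 11033 in 1B, lower by a log2 change of -0.55 ± 0.18 (edgeR adjusted p = 0.0411). The 2 RNAs differ in their seeds. Cluster_811, the tested miR167 locus of the other arm, was not called, with a log2 change of -0.19 ± 0.14 (edgeR adjusted p = 0.313). The miR393 locus, Cluster_20752, of the family that targets auxin receptors, was at 387 ± 61.6 CPM (SD, n = 4) in Control and 231 ± 72.5 in 1B, and these overlapped (edgeR adjusted p = 0.0411).

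The 2 lower loci that kept their call under the 3 scalings were miR395 and miR1432. The miR395 locus (chromosome 2, 6331792 to 6331979), of a family induced by sulfate shortage that targets ATP sulfurylase and a sulfate transporter, was at 1240, 577, 1168 and 1013 CPM in Control and at 269, 486, 395 and 328 in EB23, EB2, EB37 and EB40. The groups did not overlap, and the log2 change was -1.43 ± 0.32 (edgeR adjusted p = 0.00300), with 0.0670 without EB23 and EB37 together. The miR1432 locus (chromosome 7, 164803817 to 164803912) was at 1291, 2587, 1769 and 2292 CPM in Control and at 942, 1187, 712 and 1191 in 1B, a log2 change of -0.98 ± 0.23 (edgeR adjusted p = 0.00501). Its log2 change was -0.64 without EB37, -0.66 without D2 and -0.65 without D4 (edgeR adjusted p = 0.0527, 0.0557 and 0.0561).

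The other 6 lower loci were the second miR167-3p locus, miR393 and the unnamed loci Cluster_43245, Cluster_43696, Cluster_19615 and Cluster_3485. None of the 6 was called with the library total, and 4 of them lost the call with RLE factors. Without EB37 all 6 lost it (edgeR adjusted p 0.0527 to 0.294, with log2 changes of -1.21 to -0.37 in place of -1.41 to -0.55), as they did without D1 (0.115 to 0.284), and at least 1 of them lost it without each of EB23, EB40, D2, D3 and D4. No locus was called in the lists for phosphate (2 tested), nitrogen (1), leaf development (13), phase change (6) and silencing feedback (3). Their median log2 changes ran from -0.02 for phosphate to 0.44 for nitrogen. With RLE factors 3 loci of miR166, a leaf development family that targets class III homeodomain-leucine zipper genes, were called higher, and with the library total 5 were; these give the same RNA and may share reads, so they are not separate observations. The library total also called single loci of miR169, miR827 and miR168-3p.

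**Figure D5:**
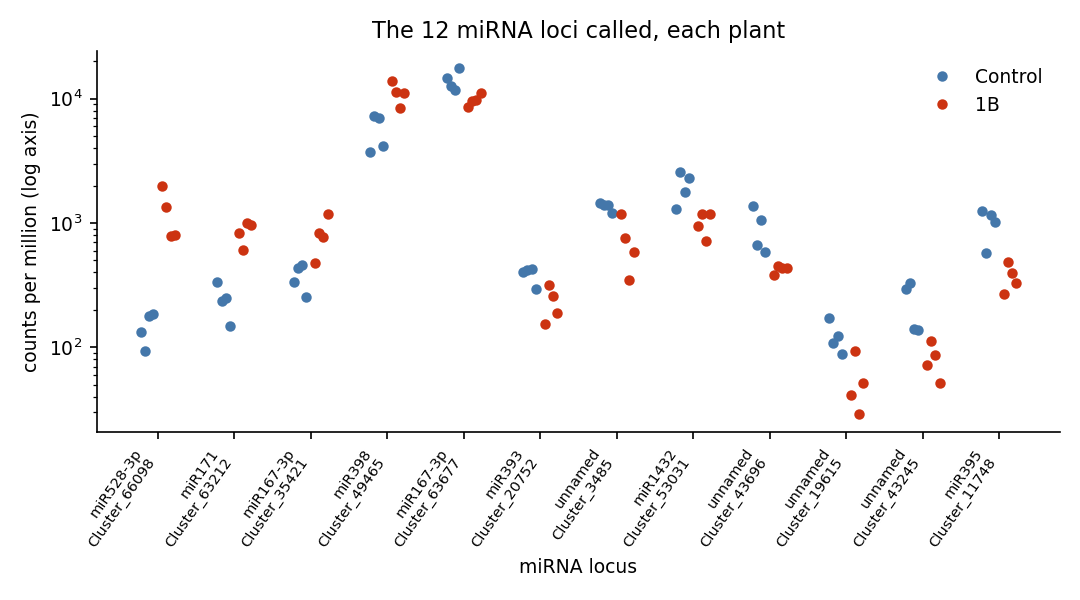
Level of the 12 called miRNA loci in CPM on a log axis (vertical axis) in each Control plant (blue) and each 1B plant (red), 1 point per plant, ordered by log2 change from the highest rise at the left to the largest fall at the right. The 4 loci at the left lie higher in 1B, and among the lower loci the points overlap for miR393 and Cluster_19615.

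No miRNA locus was called between 1B and the other carriers by edgeR or DESeq2. At an unadjusted p under 0.05, edgeR gave 3 of the 71 loci and DESeq2 4, and the lowest adjusted p was 0.843 and 0.601.

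For each plant of 1B the feature farthest from its mates is given here. Zm00004b028103 was at 16.1 FPKM in EB23, listed at 0 in the other 7 plants, and at most 4.21 in the other carriers. Zm00004b028858 was at 52.4 FPKM in EB2 and 46.7 in D1 and listed at 0 in the other 6, and it reached 96.8 in another carrier. Zm00004b032951 was at 77.1 FPKM in EB40, 34.4 in D1 and 55.8 in D2 and listed at 0 in the other 5, while its median in the other carriers was 113. Zm00004b033227 was at 9.81 FPKM in EB37 and at 0 in its 3 mates, but at 6.62 to 22.2 in all Control plants. Apart from Zm00004b028103, these genes were read in Control plants as well. In 1B and Control, the values of Zm00004b028858, Zm00004b032951 and Zm00004b033227 lie near small whole multiples of a step per gene, once relative depth is allowed for. Very few reads may thus stand behind these extremes. Among TEs, RLG00003Zm00004b06476 had no read in EB23 and 10.4 to 34.4 CPM in its mates, and DTA00003Zm00004b00004, of the hAT superfamily of DNA transposons, was at 1.37 CPM in EB2, 115 in EB40, 79.4 in EB37 and 5.16 in EB23. The other carriers spanned 3.75 to 69.1 CPM for the first and 4.34 to 150.3 for the second, so that the high plants of 1B lay within their range, and EB23 and EB2 below it. Among miRNA loci, Cluster_3485 was at 346 CPM in EB37 against 587 to 1191 in its mates, Cluster_66933 at 20.7 in EB23 and 138 in EB40, and Cluster_30904 at 18.7 in EB2 against 41.4 to 69.1. The other carriers spanned 303 to 1085 CPM for Cluster_3485, 12.7 to 155 for Cluster_66933 and 0 to 119.97 for Cluster_30904, so that these extremes lay within their range.

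The amount of gene RNA per spike-in read did not separate the groups. Its log2 value, on a relative scale, was 0.17 ± 0.33 (SD, n = 4) in 1B and -0.30 ± 0.37 in Control, a difference of 0.47 with a 2-sided exact permutation p of 0.114. Among the 1B plants it was -0.24 in EB23, 0.14 in EB2, 0.56 in EB37 and 0.22 in EB40, and in Control it was 0.23 in D3 and -0.60 to -0.39 in the others. The TE reads per gene read gave a log2 value of 0.11 ± 0.46 in 1B and 0.31 ± 0.40 in Control (2-sided exact permutation p = 0.457), with EB37, D2 and D4 highest.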

How the data were processed

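Members, gene sets and lists were chosen with earlier results of these data known. The authors deposited TE, miRNA and ERCC spike-in read counts per feature, and gene values that their steps show to be FPKM, scaled between libraries; the table does not give the unit or the depth. The authors also deposited RPM for the miRNA loci, from which the small RNA library totals of an alternative were taken, and their own comparisons as log2 fold changes with p-values. Cutadapt 1.16, TopHat2, Bowtie2, edgeR and Cuffdiff are named in the submitters' processing notes; build, annotation and handling of multiply mapped reads are not given in the sources used here. The deposited tables gave the coordinates. TE counts exceeded the small RNA total in 26 of 28 plants and were taken as RNA-seq.

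The genes tested reached 0.5 FPKM in at least 2 libraries; this was done with limma 3.58.1 (mean-variance trend) on log2(FPKM + 0.5), a scale on which low genes change less. For TEs and miRNA loci, counts went into edgeR 4.0.16 quasi-likelihood tests (TMM, filterByExpr), with DESeq2 1.42.0 as an alternative, in R 4.3.3. Each assay had 1 fit, of its 28 libraries in 8 groups; adjusted p-values (Benjamini-Hochberg) were over all features tested. P-values measure the spread between these plants. The tests were tried on simulated data. No columns were identical, so none was merged. Alternatives were other pseudocounts, filters, scalings and tools, a fit of the compared groups alone, a replicate block and left-out plants.

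Named genes were the 2 per direction with the largest called change, at 1 FPKM or more, without overlap between the groups (for the other carriers, in the same direction against every group mean), for A-chromosome and B-annotated genes apart; TEs likewise, up to 3. For each 1B plant the feature farthest from its mates was named. Of 41064 gene identifiers 0 matched the RefSeq table of assembly Zm-B73-REFERENCE-NAM-5.0, so leaf markers could not be checked. Loci of the miRNA lists that were not called are given by list, apart from copper.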

Additional observations from a re-analysis of the deposited data

Results flagged for a closer look

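Values were set apart where, in a group of 4 plants, the gap between 1 plant and the nearest other, as a share of the group's range, was above the critical value of Dixon's test at the 95% level. Of 108 groups of values 14 met this. The chance rate of about 1 in 20 groups holds for normally distributed values, and the 14 cannot be judged against it. A group in which only 1 plant was read meets the rule whatever the level in that plant, and several of the 14 are of this kind. Some of the 14 were also of features that had been named for their large changes. No explanation was tested for any of the 14.

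Plant EB37 held 6 of the 14. Its most abundant TE took 31.4% of the TE counts, against 5.81% to 9.30% in the other plants of 1B. DHH00005Zm00004b03157 was at 129814 CPM, against 888 to 11817, and RLG01144Zm00004b00002 at 96737 CPM, against 848 to 8703. The B-tagged elements RLX16462zmB00001 at 365 CPM (others 42.6 to 85.1), RLG16900zmB00001 at 8.05 (others 2.58 to 3.18) and RLG00020zmB00017 at 3.45 (others 0) were also highest there.

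In plant EB23, Zm00044a000145 was at 36.5 FPKM, against 21.0 to 23.5. Plant EB2 had 0.687 CPM of RLG00020Zm00004b00197 and EB40 0.795 CPM of RLG00020Zm00004b00049, each with none in the other plants of 1B. In Control, D3 had 0.224 FPKM of Zm00044a000177, 0.749 CPM of RLC04710Zm00004b00001 and 0.749 CPM of RLG00020Zm00004b00197, with none in the other Control plants. Plant D4 had 5.35 FPKM of Zm00004b018457, with none in the others, and 295 CPM of the miR393 locus Cluster_20752, against 406 to 425.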

How the results depend on the processing

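Scaling by the spike-in totals gave 5574 called genes in place of 8653, 5433 A-chromosome genes in place of 8514, 149 genes in place of 245 and 185 TEs in place of 342 between 1B and the other carriers; the scaling's own shift of 0.40 (log2) changes the direction balance. A fit of Control and 1B alone gave 1193 TEs in place of 1852 and 33 B-tagged TEs higher in place of 92. Its filter, scaling and spread come from fewer plants. Without EB23 and EB37 together, 161 genes and 213 TEs were called against the other carriers, and the 2B over 1B ratio of the B-only genes was 1.79 with an exact p of 0.0667, the smallest that 2 against 4 plants can give. Among the total counts of calls no other setting moved one by over 1.5 times, but higher and lower counts moved more: TEs higher against the other carriers went from 64 to 18 without EB37, genes higher from 10 to 36 without EB2, and miRNA loci from 4 higher and 8 lower to 12 and 1 without EB37 and 16 and 2 with the library total. Leaving out 1 plant each gave 7644 to 8918 genes, 1526 to 1886 TEs and 8 to 16 miRNA loci between 1B and Control.

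Same-numbered plants did not deviate together: correlations ran from -0.13 to 0.09, none of the 4 pairs in any assay passed 0.1, and at most 1 of 8 libraries correlated best with its own number. With the replicate block 8551 genes, 1785 TEs and 12 miRNA loci were called; the ratio of 1.88 had an exact sign-flip p of 0.125 within pairs, the smallest possible. The depth of the gene libraries is unknown, and the depth of the miRNA libraries limits loci of few reads. These held 55575 counts and up in Control and 1B, and 17487 in the shallowest of all 28, plant EB18 of 3B.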
